A study of Homo sapiens with 8 samples.

Results

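The genes described here are the recurrent driver genes of uveal melanoma and the signalling proteins that link an overactive Gq protein to protein kinase C (PKC) and RAS: CYSLTR2, GNAQ, GNA11, PLCB4, PRKCD, PRKCE, RASGRP3, TRIO, BAP1 and EIF1AX. They were listed by name for their known roles, with earlier results of these data known, and are 10 of the 35238 gene symbols in the count table. All 10 were among the 15085 genes that passed the filter on low counts and were tested, CYSLTR2 through its quisinostat and mivebresib libraries. The cells were MP38, an established uveal melanoma line described by the study as BAP1-mutant, and every group below carries that background. Control wells received 0.1% DMSO for 24 h. The drug wells received, for the same 24 h and at the same final DMSO content, 40 nM romidepsin or 40 nM quisinostat, both inhibitors of histone deacetylases (HDACs), or 1200 nM mivebresib, an inhibitor of the BET bromodomain proteins. Each of the 4 groups held 2 mRNA libraries from separate wells of this single line, so all p-values measure the spread between wells. The doses differed between drugs, and the same 2 control libraries served all 3 drug comparisons. The question these comparisons address is how the RNAs of the driver pathway stood after each kind of inhibitor.

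In melanocytes of the eye, a Gq-coupled receptor such as the leukotriene receptor CysLT2 switches on the alpha subunits encoded by GNAQ and GNA11. These activate phospholipase C beta, which splits a membrane lipid into inositol trisphosphate, the signal for calcium release, and diacylglycerol, the signal that recruits PKC and the RAS activator RasGRP3. A separate arm runs from Gq through TRIO, an exchange factor for RAC and related small GTPases. Uveal melanomas usually carry 1 activating mutation in CYSLTR2, GNAQ, GNA11 or PLCB4, and a later mutation in BAP1, a nuclear deubiquitinase, in EIF1AX, a factor that helps the ribosome find the start codon, or in the splicing factor SF3B1. HDACs remove acetyl groups from histones, and BET proteins bind acetylated chromatin.

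The libraries held 28483235 to 29359024 counts each. The 2 control libraries differed from each other more than the wells of any drug group did: the chi-square per degree of freedom between them was 58.1, against 9.52 to 9.79 within the drug groups. Of the 7 melanocyte lineage markers, 6 had 10 or more counts in both libraries of every group. The 7 summed to 4193 to 5452 CPM (counts scaled to the size of the library) in control and 4739 to 5027 with romidepsin. Their sum was 3563 to 4108 CPM with quisinostat and 3698 to 3776 with mivebresib. Most of it was TYRP1 (2985 and 4116 CPM in control), which was called with no drug. The sum therefore hides falls of other lineage markers. Mivebresib lowered 4 of the 6 tested, quisinostat 3 and romidepsin 1, and none was called higher. Of the markers of other cell types, CD3E, CDH5, RLBP1 and KRT5 were at 0 counts in every library. Other markers of the same lists were present, and some moved in every list but the immune one. The 4 endothelial markers summed to 0.602 to 0.913 CPM in control, 3.03 to 3.57 with romidepsin, 5.16 to 5.83 with quisinostat and 1.13 to 1.40 with mivebresib, and 2 of them rose with quisinostat and 1 with romidepsin. PECAM1, among those rising with quisinostat, had 2 and 5 counts in control and 11 and 17 with quisinostat. It could pass the filter only through groups where it was high. The 4 markers of retinal pigment epithelium summed to 10.4 to 12.9 CPM in control, 19.97 to 20.6 with romidepsin, 14.6 to 15.6 with quisinostat and 6.25 to 7.80 with mivebresib, with 1 of them higher with each HDAC inhibitor and 1 lower with mivebresib. The 4 epithelial markers summed to 0.256 to 1.93 CPM, 1 of them rising with quisinostat. The 6 fibroblast markers together reached 1.98 to 2.48 CPM in control and at most 10.9 CPM, with quisinostat, 1 of them rising with each HDAC inhibitor and 1 falling with mivebresib. The marker that fell, PDGFRB, had 10 and 18 counts in control and 5 and 1 with mivebresib, so it could pass the filter only through other groups than mivebresib. The part of these markers in the results was not tested. The 5 immune markers summed to 61.2 to 83.2 CPM, nearly all of it CD68, and none was called with any drug. In RNA from whole wells, fewer cells of a kind and less of an RNA per cell cannot be told apart.

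Control levels were compared per kilobase of exon (RPKM), since longer transcripts collect more reads. TRIO (40.7 ± 6.65 RPKM, mean ± SD, n = 2) and EIF1AX (40.6 ± 4.01) stood highest, and their libraries overlapped. GNAQ (27.97 ± 0.307), GNA11 (21.7 ± 0.618), BAP1 (16.4 ± 0.198), RASGRP3 (12.2 ± 0.337), PRKCD (8.69 ± 0.486) and PRKCE (6.25 ± 0.329) followed in that order, each without overlap with its neighbour. PLCB4 was far lower at 0.651 ± 0.0301 RPKM, and CYSLTR2 was at 0.0536 ± 0.00116 RPKM, a level above that of only 6.86% of the tested genes. The 2 wells of a group cover little of the possible spread, so neighbours in this order are separated only as far as these wells show. The order also depends on the divisor, the merged exons of all annotated transcripts of a gene. RASGRP3 and GNA11 each averaged 135.8 CPM in control and differ here through merged lengths of 11.1 and 6.24 kb. Which transcripts MP38 uses was not tested.

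A gene was called changed where edgeR's quasi-likelihood test, adjusted over all 15085 tested genes by the Benjamini-Hochberg method, gave an adjusted p under 0.05. With mivebresib, 6 of the 10 genes were called, 2 higher and 4 lower, against 46.2% of all tested genes (22.2% higher and 24.1% lower). The falls of PRKCE and RASGRP3 were the only changes of the 10 that also passed the log2 fold change of 1.5 that the study used, and 4.36% of all genes were called lower beyond it. With quisinostat, 7 of 10 were called, 2 higher and 5 lower, against 53.2% of all genes (28% higher and 25.1% lower), and none passed a log2 fold change of 1.5, which 12.2% of all genes did. With romidepsin 2 of 10 were called, 1 in each direction, against 31% of all genes (15.2% higher and 15.8% lower). The share called was above that of all genes with mivebresib and quisinostat and below it with romidepsin, on only 10 genes. Under scaling by total count the split was 3 higher and 2 lower with quisinostat and 1 higher and 0 lower with romidepsin. The romidepsin count was 4 without control replicate 2, 1 without either quisinostat library and 0 without either romidepsin library. The median absolute log2 fold change of the 10 was 0.14 with romidepsin, 0.34 with quisinostat and 0.48 with mivebresib, beside 0.30, 0.43 and 0.41 over all tested genes.

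**Figure D1:**
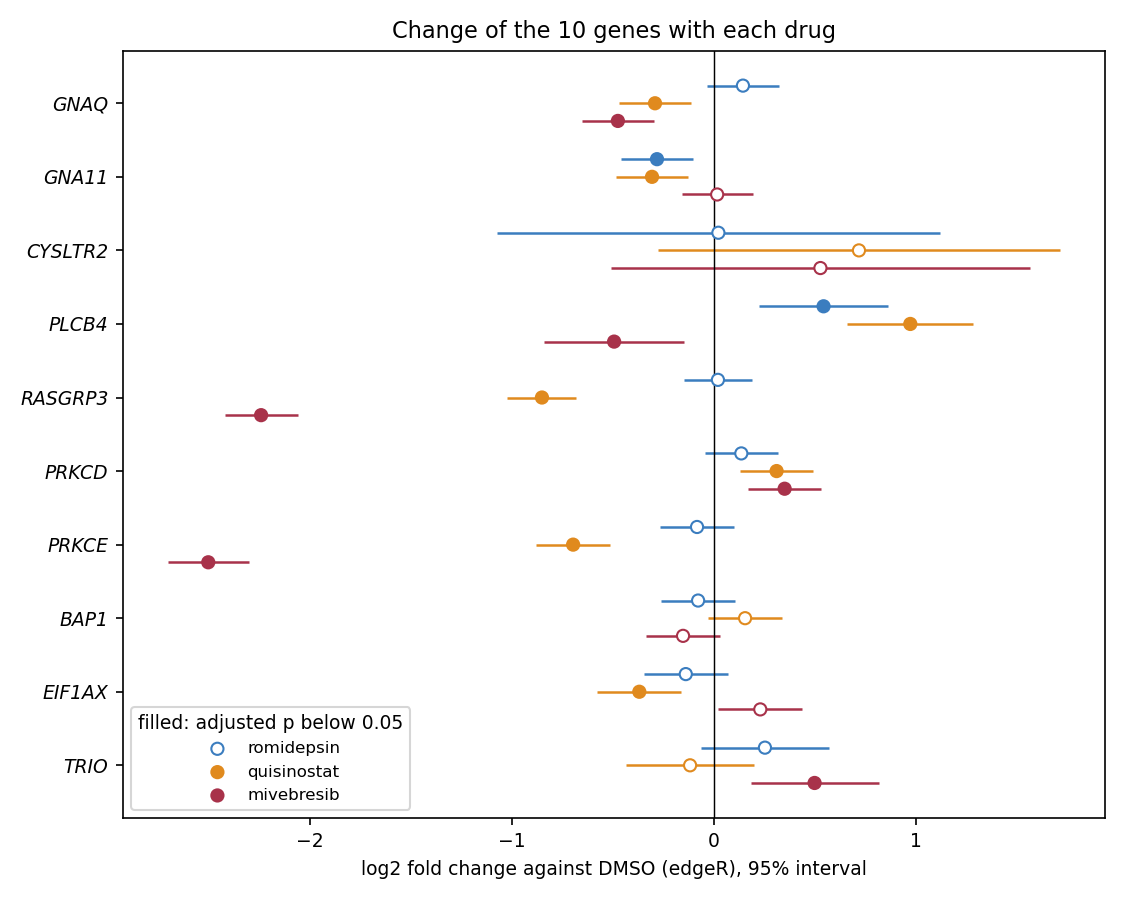
Log2 fold change of each gene against DMSO (horizontal axis) with its 95% interval from the edgeR fit, for romidepsin, quisinostat and mivebresib, with 2 libraries a group. Filled points have an adjusted p under 0.05. PRKCE and RASGRP3 with mivebresib lie far to the left at -2.50 and -2.24, PLCB4 lies to the right with both HDAC inhibitors and to the left with mivebresib, and the interval of CYSLTR2 is wide.

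The upstream sequences of 2 of the genes are shown because these genes moved apart with mivebresib, RASGRP3 lower and TRIO higher. They come from the RefSeq promoter table (GRCh38.p14), which held 7 of the 10 genes and not GNAQ, PLCB4 or BAP1. The stretch before RASGRP3 is chr2:33436098-33436323, plus strand, and that before TRIO is chr5:14143092-14143341, plus strand. Capitals mark GC boxes (GGGCGG, on the plus strand or as its reverse complement), letters known as a binding motif of SP family factors.
RASGRP3: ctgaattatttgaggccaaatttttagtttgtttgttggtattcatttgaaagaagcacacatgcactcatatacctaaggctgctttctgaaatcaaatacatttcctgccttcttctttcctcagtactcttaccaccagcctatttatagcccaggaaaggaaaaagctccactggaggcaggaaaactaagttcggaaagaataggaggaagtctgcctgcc
TRIO: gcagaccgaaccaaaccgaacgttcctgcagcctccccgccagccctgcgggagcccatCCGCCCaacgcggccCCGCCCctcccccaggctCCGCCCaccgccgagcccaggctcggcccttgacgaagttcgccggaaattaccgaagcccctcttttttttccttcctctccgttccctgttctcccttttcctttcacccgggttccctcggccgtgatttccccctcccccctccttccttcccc
The RASGRP3 stretch was poor in G and C (40.7% of its 226 bases) and held no GC box, while the 250 bases before TRIO were 66.4% G and C and held 3. The window of PRKCE, which fell with mivebresib as RASGRP3 did, matched TRIO in both values (66.4% G and C, 3 GC boxes). However, the windows of PRKCE and PRKCD lie inside the gene bounds given below, so they are not upstream of the whole gene. Those of CYSLTR2, EIF1AX and RASGRP3 overlap these bounds in part. The printed RASGRP3 stretch stops at its gene start, and its whole window was 39.6% G and C, also without a GC box. Of 27305 windows of 250 bases in the promoter table, 42.3% held a GC box, and 5 of the 7 windows of these genes did. The M-box TCATGTG, a motif of the melanocyte factor MITF, was in 2.58% of all windows, the E-box CACGTG in 6.49% and the AP-1 site TGACTCA in 4.16%, and none of these was in any of the 7 windows. These matches describe letters in a window only.

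CYSLTR2 (chr13:48653711-48711226, plus strand), the receptor in which some uveal melanomas carry their Gq driver mutation, was barely detected in MP38. It had 8 and 8 counts in control, 8 and 9 with romidepsin, 13 and 17 with quisinostat and 8 and 15 with mivebresib. Its quisinostat libraries were above both control libraries, and 1 of the 2 mivebresib libraries was level with control in raw counts. No comparison passed the test. The log2 fold change with quisinostat was 0.72 with a 95% interval from -0.28 to 1.72, so a rise of up to 1.72 on that scale was not excluded.

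GNAQ and GNA11, the paralogous alpha subunits that hold most driver mutations of uveal melanoma, did not move together with romidepsin or mivebresib. Both were lower with quisinostat. GNAQ (chr9:77716087-78031458, minus strand) was at 187 and 184 CPM in control, 197 and 213 with romidepsin, 150 and 153 with quisinostat and 132 and 135 with mivebresib. All 4 groups of GNAQ were separate, with mivebresib lowest and romidepsin highest. GNAQ fell with mivebresib (log2 fold change -0.48 ± 0.08, SE, adjusted p = 0.00133) and with quisinostat (-0.29 ± 0.08, adjusted p = 0.0126), and its value with romidepsin was 0.14 ± 0.08 (adjusted p = 0.188). Mivebresib against quisinostat was not called for GNAQ (-0.18 ± 0.08, adjusted p = 0.0715). It was called under scaling by total count (0.00424) and with upper-quartile factors (0.0159), limma on the authors' values (0.0032) and genes of mean CPM 5 or more (0.0184). GNA11 (chr19:3094410-3124004, plus strand) was at 133 and 138 CPM in control and 140 and 134 with mivebresib, which overlapped. It was at 108 and 116 CPM with romidepsin and at 111 and 108 with quisinostat, below every control library. GNA11 fell with romidepsin (-0.28 ± 0.08, adjusted p = 0.0257) and quisinostat (-0.31 ± 0.08, adjusted p = 0.00991), while its difference with mivebresib was 0.02 with a 95% interval from -0.16 to 0.19. The quisinostat calls of both genes were lost when libraries were scaled by their total count alone (GNAQ -0.09, GNA11 -0.11), a scaling under which the median of all genes rose by 0.20 on the log2 scale. Both were also lost with upper-quartile factors (GNAQ adjusted p = 0.108, GNA11 0.0743) and with limma on the authors' values (0.337 and 0.239). The quisinostat call of GNAQ was further lost over genes of mean CPM 5 or more (adjusted p = 0.0526) and in a fit of only the 4 libraries (0.0598). Without quisinostat replicate 1 it was lost too (-0.30). The romidepsin call of GNA11 was lost without romidepsin replicate 1 (-0.23) or 2 (-0.33) and without either quisinostat library (-0.27). It was also lost under scaling by total count (-0.21, adjusted p = 0.0653) and with upper-quartile factors (adjusted p = 0.0743). The same held with limma on the authors' values (adjusted p = 0.0543) and in a fit of only the 4 libraries of this comparison (adjusted p = 0.121).

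The ratio of the 2 alpha subunits does not depend on how libraries are scaled. GNAQ over GNA11, per kilobase, was 1.32 and 1.25 in control, 1.72 and 1.74 with romidepsin, 1.27 and 1.33 with quisinostat and 0.885 and 0.945 with mivebresib. The ratio with romidepsin was above and that with mivebresib below every control library, and quisinostat overlapped control. GNAQ thus made up 56.3% ± 0.969 of the summed level of the Gq class alpha subunits in control, 63.3% ± 0.209 with romidepsin, 56.5% ± 0.785 with quisinostat and 47.7% ± 1.14 with mivebresib (SD, n = 2). The other two members of the class, GNA14 and GNA15, had at most 4 counts in any library. Antisense genes of the annotation share 452 and 472 exon bases with GNA11 and are not in the count table. Whether the counting used strand is not given in the sources used here, so their reads cannot be told apart from those of GNA11.

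**Figure D2:**
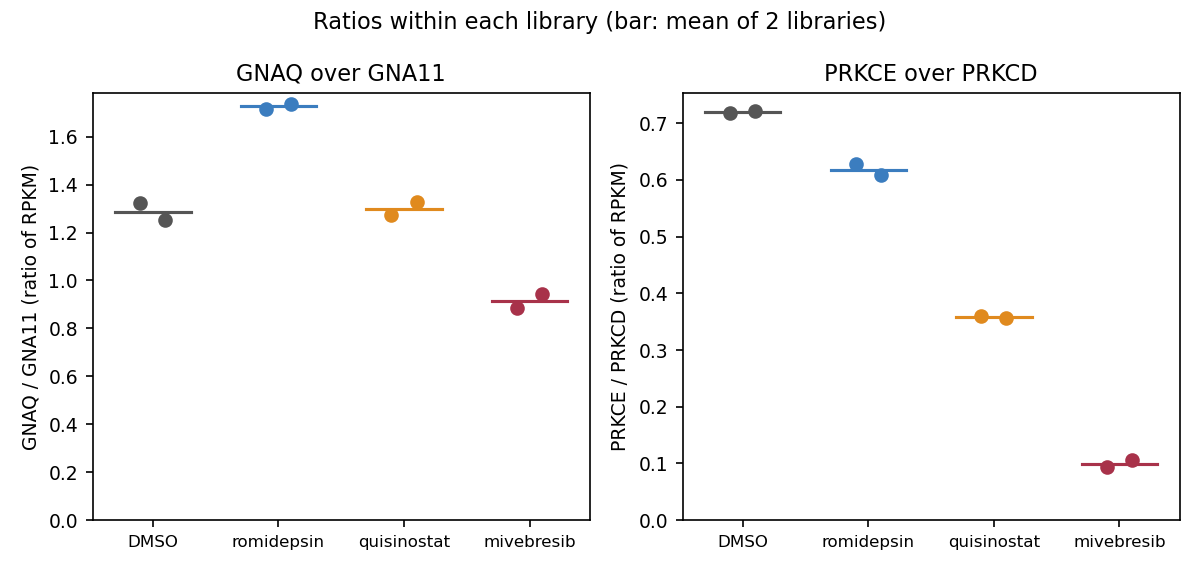
Ratio of GNAQ to GNA11 (left) and of PRKCE to PRKCD (right), each from RPKM within a library, with points for the 2 libraries of a group and a bar for their mean. The first ratio is highest with romidepsin and lowest with mivebresib. The second steps down from 0.719 in control to 0.0995 with mivebresib.

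PLCB4 (chr20:9068763-9481242, plus strand), a phospholipase C beta with a hotspot driver mutation, rose with both HDAC inhibitors and fell with mivebresib. Its level was 4.64 and 4.35 CPM in control, 6.22 and 6.89 with romidepsin, 9.05 and 8.60 with quisinostat and 2.89 and 3.49 with mivebresib. The 4 groups did not overlap. The log2 fold changes were 0.54 ± 0.14 with romidepsin (adjusted p = 0.02), 0.97 ± 0.14 with quisinostat (adjusted p = 0.000477) and -0.49 ± 0.15 with mivebresib (adjusted p = 0.0263). These values rest on 79 to 286 counts per library. The romidepsin call was lost without either romidepsin library (adjusted p = 0.0568 and 0.11), and the mivebresib call was lost with DESeq2 (adjusted p = 0.0585) and without control replicate 1 (0.0981), mivebresib replicate 1 (0.138) or either quisinostat library (0.052 and 0.0517).

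PLCB4 was a small part of its family, in which PLCB3 dominated. PLCB3 made up 94.0% ± 0.327 of the summed RPKM of the 4 phospholipase C beta genes in control, and PLCB4 5.21% ± 0.138. The share of PLCB4 was 9.55% ± 0.749 with romidepsin, 11.2% ± 0.17 with quisinostat and 3.603% ± 0.382 with mivebresib. PLCB3 fell with romidepsin (-0.40, adjusted p = 0.00417) and quisinostat (-0.24, adjusted p = 0.0198) and was 0.07 from control with mivebresib (adjusted p = 0.468). PLCB1 had 32 and 25 counts in control, 82 and 102 with quisinostat and 3 and 3 with mivebresib. It rose with quisinostat (1.51, adjusted p = 0.000897), and its control level was 9.42 times that with mivebresib, with a 95% interval of 4.07 to 26.7 that covers counting error only.

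PRKCE (chr2:45651345-46187990, plus strand) encodes PKC epsilon, a calcium-independent PKC that diacylglycerol activates, and had the steepest fall among the 10 genes. It was at 64.2 and 59.6 CPM in control, 58.5 and 58.4 with romidepsin, 38.6 and 37.8 with quisinostat and 10.4 and 11.4 with mivebresib. The levels stepped down in that order, with only a narrow gap between control and romidepsin. PRKCE fell 5.67-fold with mivebresib (log2 fold change -2.50 ± 0.09, adjusted p = 9.97e-07) and 1.62-fold with quisinostat (-0.70 ± 0.08, adjusted p = 0.000161). With romidepsin the log2 fold change was -0.08 with a 95% interval from -0.27 to 0.10. Of all tested genes, 1.56% had a lower log2 fold change with mivebresib than PRKCE. The table lists a processed pseudogene, AC017078.1, within PRKCE that shares 0 exon bases with it.

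PRKCD (chr3:53156009-53192717, plus strand), which encodes PKC delta of the same subclass, went the other way. Its levels were 30.7 and 28.3 CPM in control, 31.9 and 32.9 with romidepsin, 36.8 and 36.5 with quisinostat and 38.3 and 37.0 with mivebresib. Every drug library lay above both control libraries. PRKCD rose with quisinostat (0.31 ± 0.08, adjusted p = 0.00987) and mivebresib (0.35 ± 0.08, adjusted p = 0.00661), and its value with romidepsin was 0.14 ± 0.08 (adjusted p = 0.22). The quisinostat call was lost without either quisinostat library (adjusted p = 0.076 and 0.0833). Per kilobase, PRKCE over PRKCD was 0.718 and 0.721 in control, 0.628 and 0.608 with romidepsin, 0.360 and 0.356 with quisinostat and 0.0931 and 0.106 with mivebresib, and the 4 groups were separate.

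Across 8 PKC genes, the summed level was 36.5 ± 0.185 RPKM in control, 39.6 ± 0.378 after romidepsin, 45.04 ± 0.923 after quisinostat and 35.6 ± 0.79 after mivebresib, while the makeup of that sum shifted. PRKCE gave 17.1% ± 0.989 of it in control, 14.9% ± 0.170 with romidepsin, 8.56% ± 0.291 with quisinostat and 3.09% ± 0.142 with mivebresib. PRKCD gave 23.8% ± 1.45 in control and 31.2% ± 1.42 with mivebresib. PRKCA, the classical PKC alpha and the largest part in control (37.5% ± 4.22), was called with no drug, its log2 fold changes being -0.01, 0.14 and -0.07 in that order. PRKCB, the classical PKC beta, rose with all 3 drugs, by 0.73, 1.88 and 1.21 in the same order (adjusted p = 0.00129, 3.87e-06 and 4.05e-05). PRKCH, PKC eta, rose with both HDAC inhibitors (0.55 and 0.55) and fell with mivebresib (-1.15, adjusted p = 0.000119). PRKCI, the atypical PKC iota, rose with romidepsin and quisinostat (0.45 and 0.55, adjusted p = 0.00686 and 0.00117). With mivebresib, PRKCE and PRKCH thus fell while PRKCD and PRKCB rose.

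**Figure D3:**
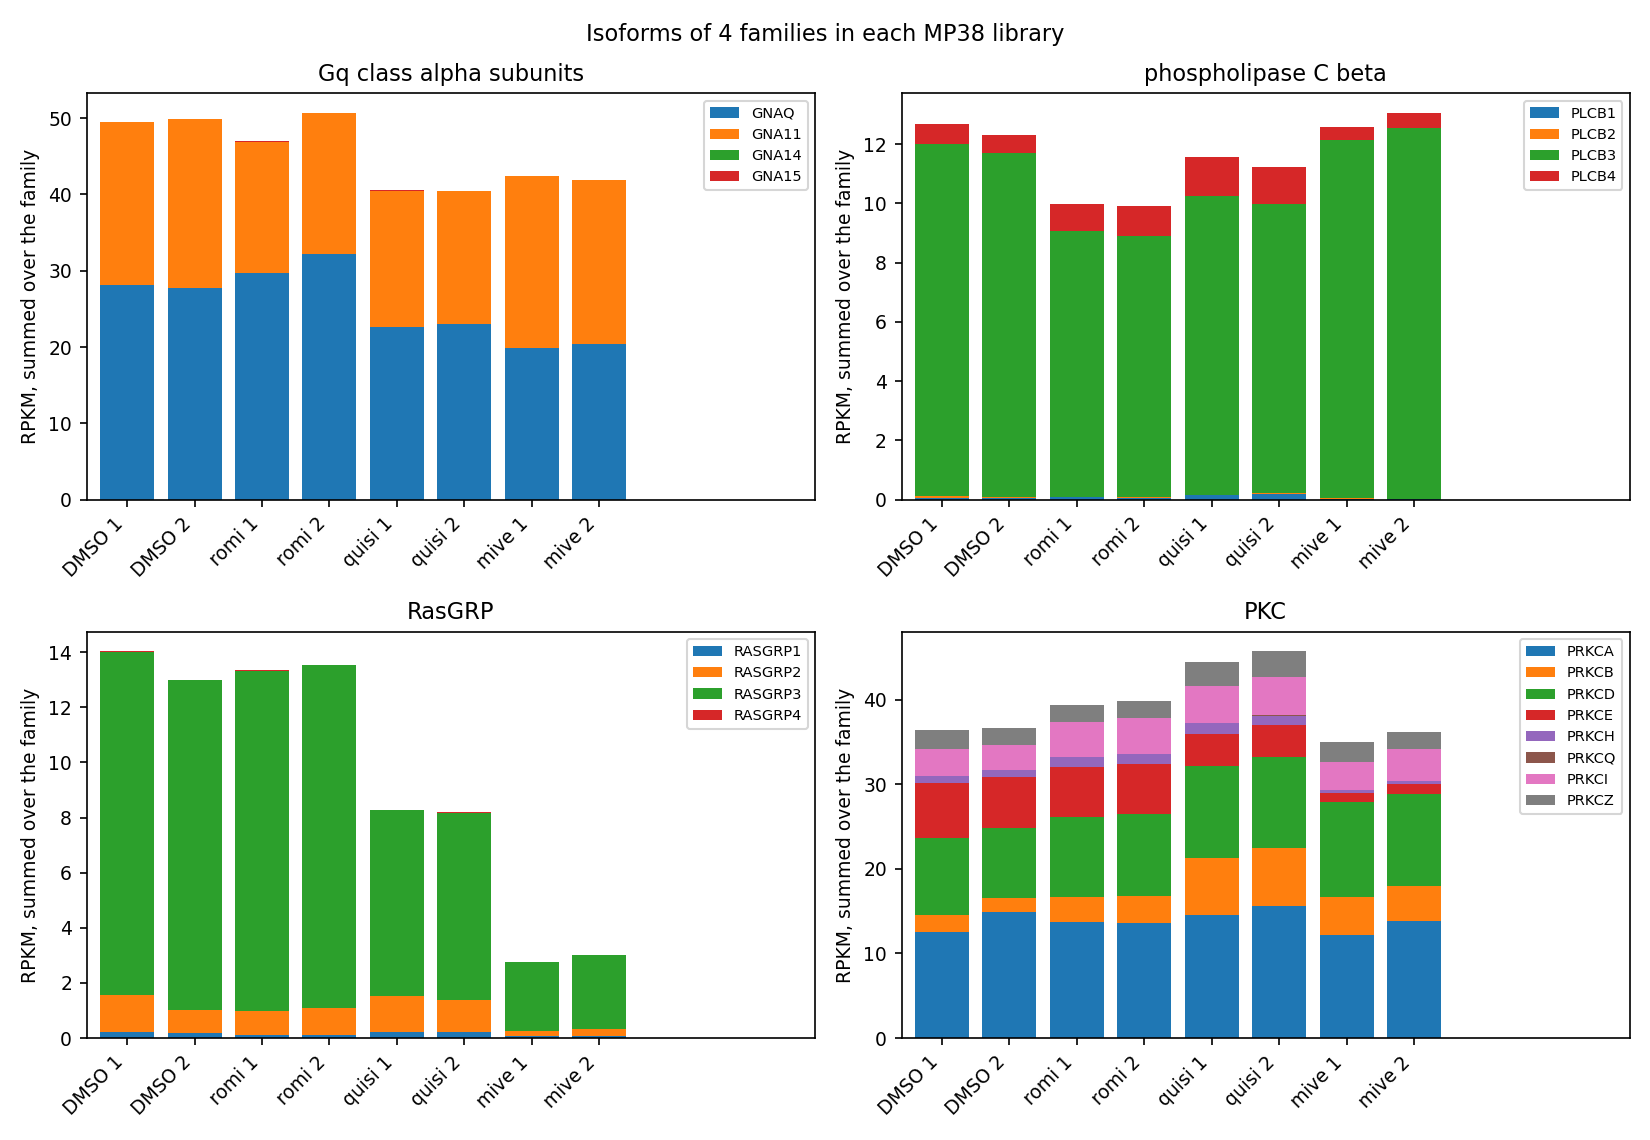
Level of each isoform (RPKM, stacked) in each of the 8 libraries for the Gq class alpha subunits, phospholipase C beta, RasGRP and PKC families, from DMSO 1 and 2 to mivebresib 1 and 2. The RasGRP stack drops from 13.5 RPKM on average in control to 2.90 with mivebresib, whereas the PKC stack stays near its control height of 36.5 with mivebresib while PRKCE shrinks within it.

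RASGRP3 (chr2:33436324-33564750, plus strand), the diacylglycerol-regulated exchange factor that loads RAS with GTP, was not called with romidepsin and fell with the other drugs. It was at 138 and 133 CPM in control, 137 and 138 with romidepsin, 75.2 and 75.4 with quisinostat and 27.7 and 29.7 with mivebresib. Romidepsin overlapped control, and the quisinostat and mivebresib groups each stood apart. RASGRP3 fell 4.73-fold with mivebresib (-2.24 ± 0.08, adjusted p = 9.97e-07) and 1.80-fold with quisinostat (-0.85 ± 0.07, adjusted p = 3.73e-05), and its difference with romidepsin was 0.02 with a 95% interval from -0.15 to 0.19. An antisense gene of the annotation shares 70 exon bases with RASGRP3 and is not in the count table.

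RASGRP3 made up 90.4% ± 2.38 of the summed RasGRP level in control and 89.2% ± 1.07 with mivebresib, so the family total followed it. That total was 13.5 ± 0.729 RPKM in control, 13.4 ± 0.123 with romidepsin, 8.24 ± 0.0615 with quisinostat and 2.90 ± 0.184 for mivebresib. Its relatives also fell with mivebresib, with log2 fold changes of -2.27 for RASGRP2 (adjusted p = 0.000191) and -1.35 for RASGRP1 (adjusted p = 0.0048). With quisinostat RASGRP2 (0.16, adjusted p = 0.537) and RASGRP1 (0.13, adjusted p = 0.662) were not called. RASGRP4 had at most 5 counts in a library.

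The calls of PRKCE and RASGRP3 with quisinostat and mivebresib were kept under every alternative run and without any single library, apart from the added limit of 1.5 for quisinostat. The melanocyte lineage regulators MITF and SOX10 were also called lower with quisinostat and mivebresib. SOX10 was called lower with romidepsin too (-0.39, adjusted p = 0.0141), where PRKCE and RASGRP3 were not called. MITF was at 351 and 349 CPM in control, 293 and 308 with romidepsin, 133 and 134 with quisinostat and 124 and 129 with mivebresib, and SOX10 at 216 and 202, 149 and 169, 107 and 114, and 57.2 and 52.8 in the same order. MLANA was called lower with quisinostat (-1.05) and mivebresib (-1.33), and PMEL with mivebresib (-0.51) but not with quisinostat (-0.01). TYRP1, the most abundant of the 7 lineage markers, and TYR were not called with any drug. The part of this lineage change in the levels of PRKCE and RASGRP3 was not tested.

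TRIO (chr5:14143702-14532128, plus strand), the exchange factor that carries Gq signals to RAC and related GTPases, rose with mivebresib. It was at 629 and 794 CPM in control, 888 and 807 with romidepsin, 641 and 671 with quisinostat and 911 and 1099 with mivebresib. The control wells lay far apart for this gene, and quisinostat fell within their range. The log2 fold changes were 0.50 ± 0.14 with mivebresib (adjusted p = 0.0176), 0.25 ± 0.14 with romidepsin (adjusted p = 0.195) and -0.12 ± 0.14 with quisinostat (adjusted p = 0.499). Without mivebresib replicate 2 the mivebresib value was 0.36 and the call was lost (adjusted p = 0.136), and without control replicate 2 the romidepsin value was 0.43 and passed (adjusted p = 0.0138). With quisinostat the sign turned under scaling by total count (0.08). KALRN, its close relative, made up under 1% of the summed level of the pair in every group (0.271% at most, in quisinostat replicate 2).

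BAP1 (chr3:52401013-52410350, minus strand), whose loss marks uveal melanomas that spread, was not called with any drug against control. It was at 83.6 and 82.2 CPM in control, 78.9 and 78.2 with romidepsin, 95.03 and 89.5 with quisinostat and 78.2 and 71.0 with mivebresib. No drug group overlapped control, but the shifts were small. The log2 fold changes and 95% intervals were -0.08 (-0.26 to 0.10) with romidepsin, 0.15 (-0.03 to 0.34) with quisinostat and -0.15 (-0.34 to 0.03) with mivebresib. With quisinostat BAP1 was called higher under scaling by total count (0.35, adjusted p = 0.00506) and also with upper-quartile factors (0.28), limma on the authors' values (0.35) and genes of mean CPM 5 or more (0.25). A gene-level count of reads does not say which allele they came from or whether a protein was made.

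EIF1AX (chrX:20124518-20141844, minus strand), the start codon scanning factor, fell with quisinostat and was not called with romidepsin or mivebresib. It was at 192 and 167 CPM in control, 165 and 161 with romidepsin, 142 and 136 with quisinostat and 217 and 204 with mivebresib. The log2 fold changes were -0.37 ± 0.09 with quisinostat (adjusted p = 0.00883), 0.23 ± 0.09 with mivebresib (adjusted p = 0.0678) and -0.14 ± 0.09 with romidepsin (adjusted p = 0.274). Scaling by total count ended the quisinostat call (-0.17, adjusted p = 0.163), and so did leaving out quisinostat replicate 2 (adjusted p = 0.0543). With mivebresib EIF1AX was called higher without control replicate 1 (0.36, adjusted p = 0.00478), with upper-quartile factors (adjusted p = 0.0356), over genes of mean CPM 5 or more (0.0367) and with limma on the authors' values (0.0494). With romidepsin it was called lower without control replicate 2 (-0.24, adjusted p = 0.0363). The processed copies EIF1AXP1, EIF1AXP2 and GNAQP1 had at most 1 count in any library.

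**Figure D4:**
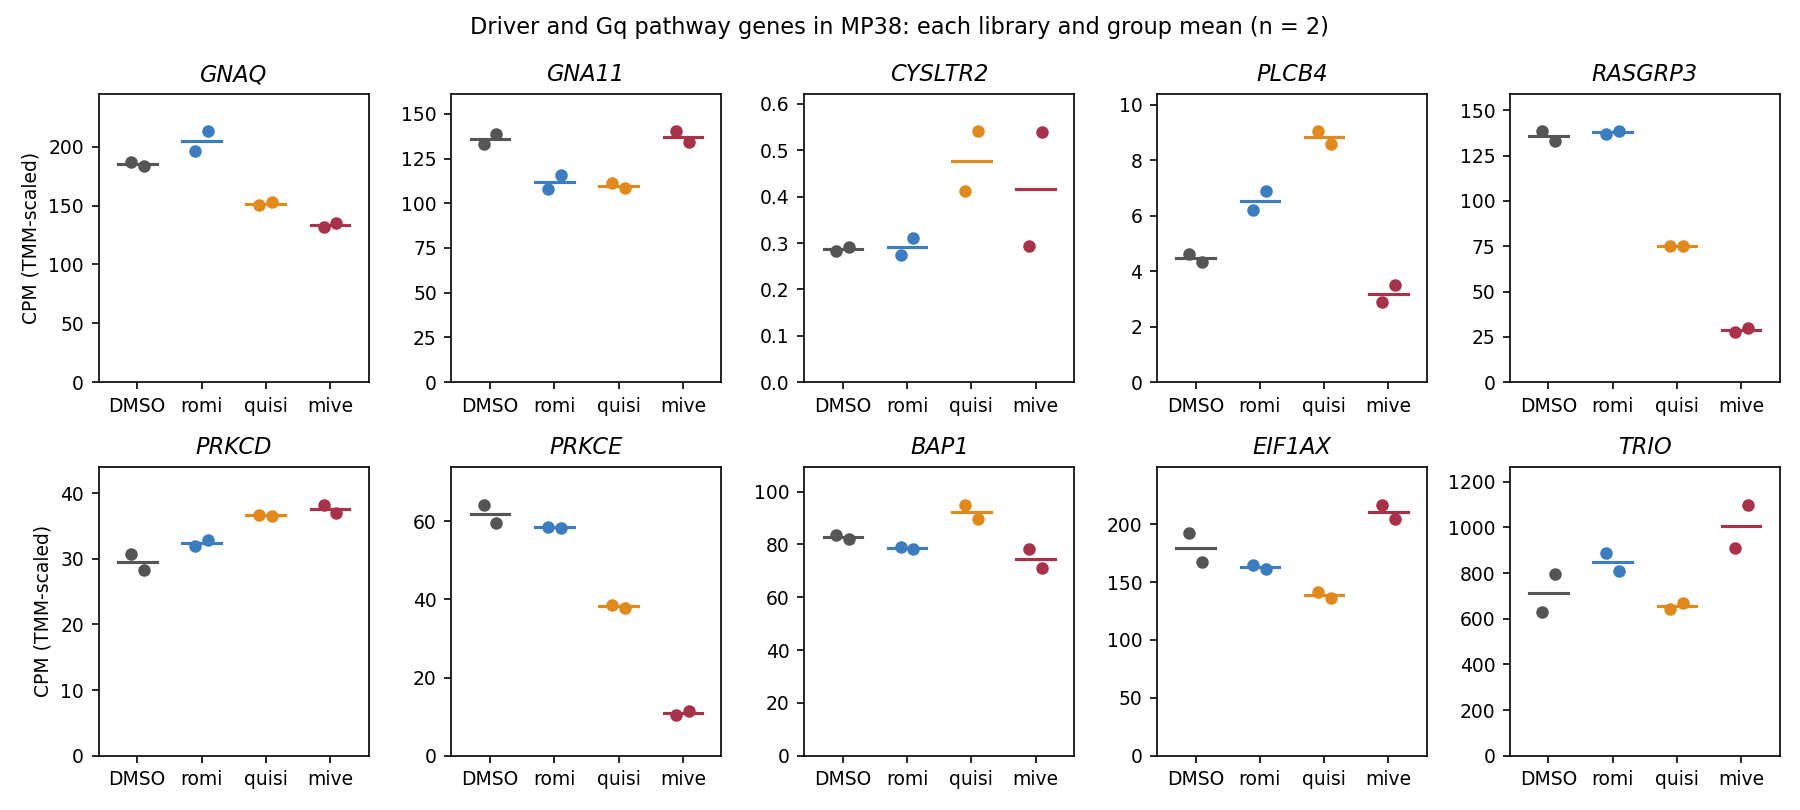
Level of each of the 10 genes (TMM-scaled CPM, linear axis from 0, a separate scale per panel) in the 2 libraries of each group, with a bar for the group mean. PRKCE and RASGRP3 step down from quisinostat to mivebresib, PLCB4 is highest with quisinostat, and the 2 control libraries lie far apart for TRIO.

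The drugs were also compared with each other directly, at the doses given and without adjustment for potency. Quisinostat and romidepsin, both HDAC inhibitors at 40 nM, differed in 4 of the 10 genes, 1 higher and 3 lower with quisinostat, against 35.6% of all genes (21% higher and 14.6% lower). RASGRP3 was 1.83-fold lower with quisinostat than with romidepsin (-0.87 ± 0.07, adjusted p = 0.000139), PRKCE 1.53-fold lower (-0.61 ± 0.08, adjusted p = 0.000825) and GNAQ 1.35-fold lower (-0.44 ± 0.08, adjusted p = 0.00345). PLCB4 was 1.35-fold higher (0.43 ± 0.13, adjusted p = 0.0341), a call that DESeq2 (adjusted p = 0.0981) and leaving out any of these 4 libraries ended. Without either control library the count was 7, with BAP1, EIF1AX and TRIO added. The 95% interval for GNA11, -0.20 to 0.15, held no difference between the HDAC inhibitors larger than that.

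Mivebresib and romidepsin differed in 7 of the 10 genes, 3 higher and 4 lower with mivebresib, against 48.9% of all genes (23.7% higher and 25.2% lower). PRKCE (-2.42 ± 0.09, adjusted p = 1.09e-06), RASGRP3 (-2.26 ± 0.08, adjusted p = 1.09e-06), PLCB4 (-1.04 ± 0.15, adjusted p = 0.000539) and GNAQ (-0.62 ± 0.08, adjusted p = 0.000296) were lower. EIF1AX (0.37 ± 0.09, adjusted p = 0.0097) and GNA11 (0.30 ± 0.08, adjusted p = 0.0124) were higher, and PRKCD (0.21 ± 0.08, adjusted p = 0.0495) was higher by a margin that most alternatives removed. The GNA11 call was lost without romidepsin replicate 1 (adjusted p = 0.108) or mivebresib replicate 1 (0.0764), and that of EIF1AX without either of these or romidepsin replicate 2 (0.0523 to 0.0693). The count was 4 without romidepsin replicate 1 and 4 without mivebresib replicate 1. Mivebresib and quisinostat also differed in 7, 3 higher and 4 lower with mivebresib, against 57.7% of all genes (26.2% higher and 31.5% lower). PRKCE was 3.50-fold lower with mivebresib (-1.81 ± 0.09, adjusted p = 1.74e-06), PLCB4 2.76-fold lower (-1.47 ± 0.14, adjusted p = 5.07e-05), RASGRP3 2.62-fold lower (-1.39 ± 0.08, adjusted p = 3.08e-06) and BAP1 1.24-fold lower (-0.31 ± 0.08, adjusted p = 0.0101). The BAP1 call was lost without quisinostat replicate 1 (adjusted p = 0.114) or 2 (0.053) or mivebresib replicate 2 (0.080). TRIO (0.62 ± 0.14, adjusted p = 0.00505), EIF1AX (0.60 ± 0.09, adjusted p = 0.000609) and GNA11 (0.32 ± 0.08, adjusted p = 0.00691) were higher with mivebresib than with quisinostat, that of GNA11 not under scaling by total count (0.14, adjusted p = 0.135). PRKCE, RASGRP3 and PLCB4 were thus lower with mivebresib than with either HDAC inhibitor.

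The other genes of the pathway were followed through 9 lists of 172 genes, of which 145 were tested. With mivebresib 65 of these were called, 25 higher and 40 lower (44.8%, beside 46.2% of all genes). With quisinostat 89 were called, 43 higher and 46 lower (61.4%, beside 53.2%), and with romidepsin 49, 21 higher and 28 lower (33.8%, beside 31%). These counts include 6 genes called higher with quisinostat, 3 with romidepsin and 1 with mivebresib that had under 10 counts in both control libraries, and 1 called lower that had under 10 with mivebresib; such genes could pass the filter only through the groups where they were high. Scaling by total count moved the split with quisinostat to 58 higher and 25 lower and with romidepsin to 28 and 18, and over all tested genes from 4231 higher and 3793 lower to 5625 and 2144 with quisinostat and from 2293 and 2377 to 2787 and 1700 with romidepsin. Without romidepsin replicate 1 or 2 the romidepsin count was 20 or 24.

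Among 18 tested Gq-coupled receptors, mivebresib lowered 7 and raised 1 (44.4% called, beside 46.2% of all genes), with a median log2 fold change of -0.44. ADRA1B, the alpha-1B adrenergic receptor, went from 23.0 and 21.7 CPM to 3.55 and 3.597 (-2.64 ± 0.13, adjusted p = 2.8e-06), and HTR2B, a serotonin receptor, from 376 and 522 to 69.0 and 80.5 (-2.59 ± 0.16, adjusted p = 9.64e-06). The count was 5 without mivebresib replicate 1. Quisinostat raised 9 receptors and lowered 3, among them ADRA1D, the alpha-1D adrenergic receptor (2.54 ± 0.20), and the nucleotide receptor P2RY1 (1.199 ± 0.19), with 66.7% called beside 53.2% of all genes. Of those 9, ADRA1A, BDKRB2 and EDNRA, named after their values were seen, had under 10 counts in both control libraries, which leaves 6. Romidepsin raised 2, EDNRA among them, and lowered 1 (16.7%, beside 31%), the lipid receptor S1PR2 falling by 0.49 on the log2 scale (1 called without romidepsin replicate 1 and 0 without replicate 2).

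Of 13 tested G protein subunits and chaperones, mivebresib lowered 7 and raised none (53.8% called, beside 46.2% of all genes; 1 raised with upper-quartile factors, and 4 called without mivebresib replicate 2). The gamma subunits GNG11 (-1.79 ± 0.14) and GNG4 (-1.13 ± 0.19) were among them. Quisinostat raised 4 and lowered 4 (61.5%, beside 53.2%; 5 and 1 under scaling by total count), GNG2 rising by 1.66 ± 0.15 and GNG7 by 0.62 ± 0.09. Romidepsin lowered 2 (15.4%, beside 31%), RIC8A, a chaperone of Gq alpha subunits (-0.43 ± 0.09), and GNB5 (-0.26 ± 0.09), a count that was 6 without control replicate 2, 0 without romidepsin replicate 1 and 1 without romidepsin replicate 2 or any quisinostat or mivebresib library.

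Of the brakes on Gq, which speed GTP hydrolysis or uncouple receptors, 10 of 12 tested were called with each HDAC inhibitor (83.3%, beside 53.2% of all genes with quisinostat and 31% with romidepsin). Quisinostat raised 8 and lowered 2 (9 and 0 under scaling by total count), and romidepsin raised 7 and lowered 3 (8 and 1). RGS5 with both and RGS17 with quisinostat, named after their values were seen, had under 10 counts in both control libraries. RGS2, which acts on Gq alpha subunits, was at 15.5 and 13.1 CPM in control, 21.0 and 21.1 with romidepsin (0.56 ± 0.10, adjusted p = 0.00364) and 37.6 and 36.4 with quisinostat (1.37 ± 0.10, adjusted p = 1.18e-05). ARRB2, an arrestin, rose with quisinostat (0.85 ± 0.10), and RGS19 fell with romidepsin (-0.79 ± 0.17). Mivebresib raised 3, RGS17 among them, and lowered 3 (50%, beside 46.2%), RGS19 (-0.91 ± 0.17) and RGS3 (-0.86 ± 0.11) among the latter. The romidepsin count was 4 without either romidepsin library.

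Genes of the inositol phosphate and diacylglycerol steps next to PLCB4 and the PKCs included rises of over 4-fold with mivebresib. ITPR1, an inositol trisphosphate receptor, went from 10.6 and 16.5 CPM to 53.4 and 66.2 (2.14 ± 0.21, adjusted p = 7.6e-05), and PLCG2, a phospholipase C of the gamma class, from 3.58 and 3.84 to 16.5 and 16.0 (2.13 ± 0.11, adjusted p = 4.67e-06). PLCG2 also rose with quisinostat (1.34 ± 0.11), with which ITPKB, a kinase of inositol trisphosphate, fell (-1.03 ± 0.09). With romidepsin INPP5A fell (-0.51 ± 0.11) and ITPR3 rose (0.45 ± 0.15). In the inositol phosphate list of 15 tested genes, the shares called were 60% with mivebresib, 66.7% with quisinostat and 20% with romidepsin, beside 46.2%, 53.2% and 31% of all genes. Mivebresib raised 5 and lowered 4, quisinostat raised 6 and lowered 4 (7 and 1 under scaling by total count, and 6 called in all without either quisinostat library) and romidepsin raised 1 and lowered 2 (3 and 2 under that scaling, 5 called in all without control replicate 2 and 1 without romidepsin replicate 1). In the diacylglycerol and PKC list of 20, mivebresib raised 7 and lowered 3 (50%), quisinostat raised 10 (50%) and romidepsin 6 (30%), with none called lower by either HDAC inhibitor in the edgeR fit. DGKQ, a kinase that removes diacylglycerol, rose with mivebresib (1.51 ± 0.08), DGKA of the same class with romidepsin (0.71 ± 0.09), and PRKD1, a kinase downstream of PKC, with quisinostat (1.00 ± 0.16).

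Around RAS, 5 of 16 tested genes fell and 1 rose with mivebresib (37.5% called, beside 46.2% of all genes), RASGRP2 (given above) among those that fell. Each HDAC inhibitor lowered 6 and raised 2 (50%, beside 53.2% with quisinostat and 31% with romidepsin; 5 and 4 with romidepsin under scaling by total count). The RAS exchange factor SOS1 fell with quisinostat (-0.69 ± 0.09), and ARAF, a kinase that RAS activates (-0.69 ± 0.11), and RASA3 (-0.61 ± 0.09) fell with romidepsin, whose count of 8 was 3 or 4 without romidepsin replicate 1 or 2 and 5 without either quisinostat library. Around TRIO, mivebresib lowered 5 of 16 tested genes and raised 2 (43.8%), RAC3 (-1.04 ± 0.21) and the Gq-activated exchange factor ARHGEF25 (-0.73 ± 0.11) among those that fell. The count was 11 without control replicate 1 and 4 or 3 without mivebresib replicate 1 or 2. ARHGEF25 rose with quisinostat (0.86 ± 0.10), with which 3 rose and 7 fell (62.5%; 5 and 3 under scaling by total count), and CDC42, a small GTPase, fell with quisinostat (-0.84 ± 0.10) and romidepsin (-0.51 ± 0.10). Romidepsin lowered 3 and raised 1 (25%; 3 and 3 under that scaling, and 1 called in all without romidepsin replicate 1), IQSEC1 falling by 0.63 on the log2 scale.

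Among 11 tested partners of the BAP1 complex, quisinostat lowered 7 and raised 1 (72.7% called, beside 53.2% of all genes; 3 and 2 under scaling by total count). HCFC1, the host cell factor that BAP1 binds, was at 127 and 149 CPM in control, 62.0 and 54.7 with romidepsin (-1.24 ± 0.11, adjusted p = 0.000142) and 56.2 and 61.6 with quisinostat (-1.23 ± 0.11, adjusted p = 3.26e-05). MBD6 fell with quisinostat (-0.52 ± 0.09). Mivebresib raised 4 and lowered 2 (54.5%, beside 46.2%; 5 and 1 with upper-quartile factors), the demethylase KDM1B (0.95 ± 0.08) and the glycosyltransferase OGT (0.94 ± 0.13) among those that rose, and the count was 3 without mivebresib replicate 1. Romidepsin raised 2 and lowered 3 (45.5%, beside 31%; 2 and 1 under scaling by total count), with KDM1B higher by 0.34 ± 0.08, and its count was 2 without either romidepsin or either quisinostat library and 3 without either mivebresib library. Of 24 genes, those of translation initiation and the splicing factor SF3B1, quisinostat lowered 13 and raised none (54.2%, beside 53.2%; 9 lower and 2 higher under scaling by total count), and romidepsin lowered 8 and raised none (33.3%, beside 31%; 4 lower under scaling by total count, 3 or 4 without romidepsin replicate 1 or 2, 4 without either quisinostat library and 13 without control replicate 2). EIF4A1 (-0.97 ± 0.09) and EIF4G1 (-0.71 ± 0.15), parts of the cap-binding complex, fell with quisinostat, and EIF5 (-0.73 ± 0.09) and EIF1 (-0.72 ± 0.12), which act at start codon choice with EIF1AX, fell with romidepsin. Mivebresib lowered 4 and raised 2 (25%, beside 46.2%; 3 and 4 with upper-quartile factors), EIF3F falling by 0.96 and EIF3K by 0.42 on the log2 scale, with 10 called without control replicate 2 and 2 or 3 without mivebresib replicate 1 or 2.

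**Figure D5:**
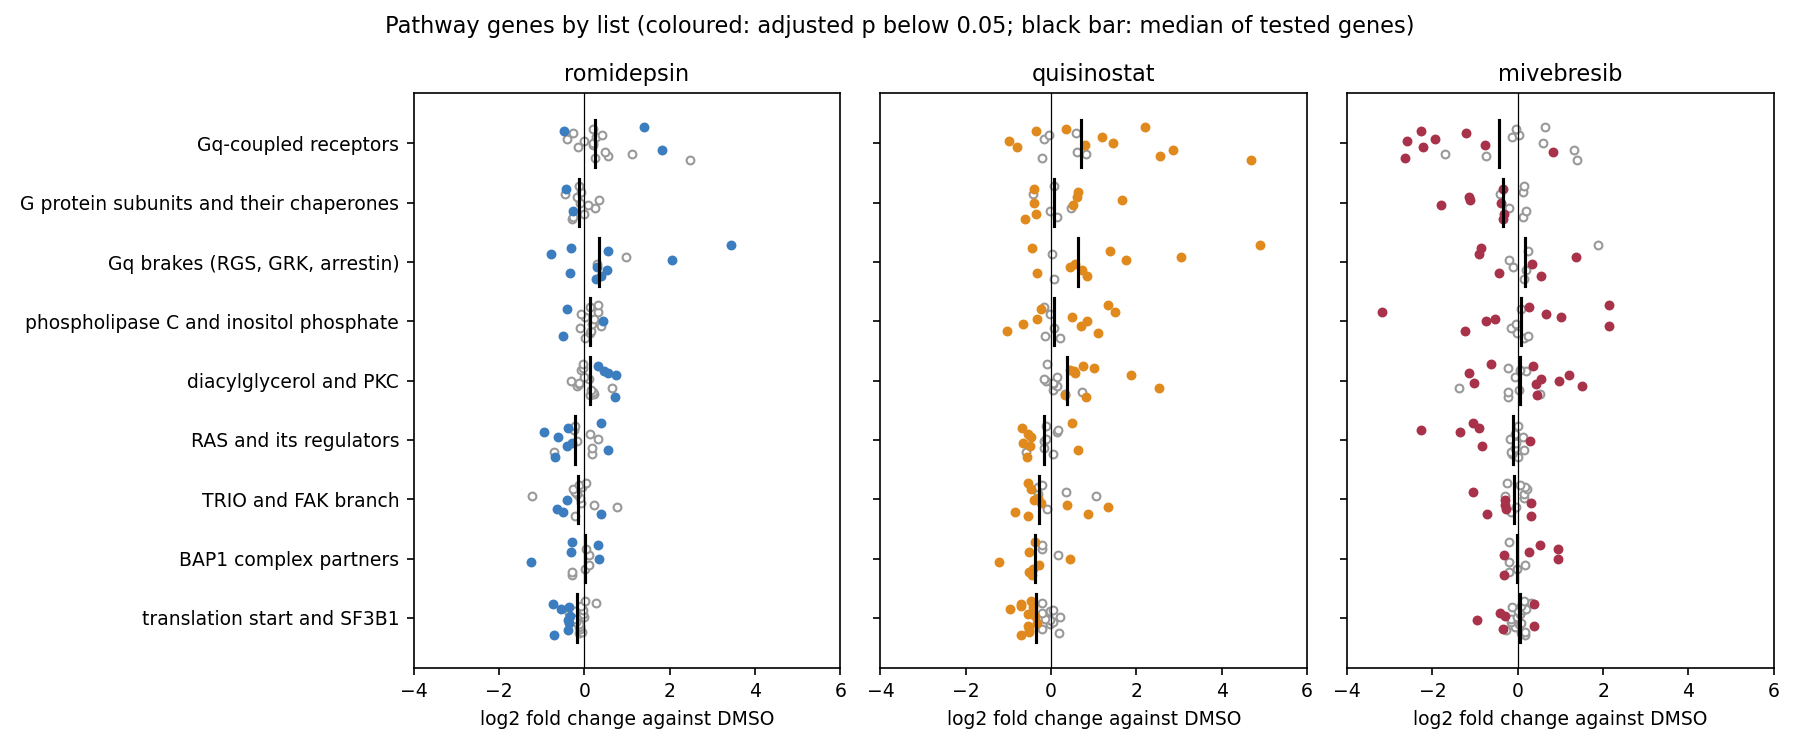
Log2 fold change against DMSO of each tested gene of the 9 pathway lists, a panel for each drug, with coloured points for an adjusted p under 0.05 and a black bar for the list median. Gq-coupled receptors lie mostly to the right of 0 with quisinostat and to the left with mivebresib, at a median of -0.44. Genes with 0 counts in both control libraries are not drawn.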

How the data were processed

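Total RNA from 8 wells of MP38 cells was sequenced by the authors as strand-specific, paired-end mRNA libraries and processed with BioJupies. The aligner, the annotation and the use of strand in counting are not given in the sources used here, and the labels name hg38. The deposited values used were whole-number counts per gene symbol, and the authors' log10(CPM + 1) values (log10 scale) served as an alternative. A quantile-normalized table of unnamed scale was not used. Libraries held 28483235 to 29359024 counts, so a gene at 0 in a library could still be present at up to 3 counts, and intervals from counts cover counting error only.

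Genes were filtered with filterByExpr by group, scaled by TMM and fitted in edgeR 4.0.16 (R 4.3.3) with 1 mean per group over all 8 libraries, which then share 1 estimate of the spread. The 6 contrasts were tested by quasi-likelihood with Benjamini-Hochberg adjustment over 15085 genes. CPM values are TMM-scaled, and RPKM divides them by merged exon length in GENCODE 29, matched by symbol. The step was tested on simulated data for mivebresib against control with 200 of 15085 genes changed 3-fold: edgeR recovered 99% with 7 false calls. The simulated wells all had 1 common spread. In the real data 46.2% of tested genes were called with mivebresib, and the control wells differed more than the drug wells. The simulated figures are therefore not error rates for these comparisons. Alternatives were DESeq2 1.42.0, limma-voom and limma 3.58.1 on the authors' values, other scalings and filters, the 4 libraries of a contrast alone, a replicate block and each library left out. Windows of the promoter table were searched on both strands.

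The 10 genes and the pathway lists were chosen with earlier results of these data known. All 10 genes were described. From each list and drug, up to 2 called genes with the largest change were named, provided their log2 CPM averaged 1 or more. For each drug the called gene among the 10 with the largest change got its 3 nearest genes (log2 CPM averaging 3 or more). Some genes that these rules picked are not reported here. Isoforms in the family comparisons, and MITF, SOX10, TYRP1, TYR, PMEL, MLANA, CD68, PECAM1 and PDGFRB, were named after their values were seen.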

Additional observations from a re-analysis of the deposited data

How the results depend on the processing

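With 2 wells per group, small shifts could not be told from the spread between wells. Apart from left-out libraries, 523 of the recomputed values kept direction and side of the threshold, 29 lost and 29 gained a call and 13 reversed; with 1 library left out these numbers were 429, 33, 11 and 7. The cause of the changes was not tested. Requiring a log2 fold change beyond 1.5 left 0, 0 and 2 of the 10 genes for romidepsin, quisinostat and mivebresib against control, 0 for quisinostat and 2 for mivebresib against romidepsin, 1 for mivebresib against quisinostat, and 4, 13 and 11 pathway genes. Using only the 4 libraries of a contrast, which leaves fewer degrees of freedom, gave 0 of the 10 for romidepsin, 7 for quisinostat against romidepsin, and 19 and 42 pathway genes for romidepsin and mivebresib. The romidepsin count was 1 with the authors' log values, upper-quartile factors or total counts. With a library left out, the counts ran from 0 to 4 for romidepsin, 5 to 7 for quisinostat, 5 to 6 for mivebresib, 3 to 7 for quisinostat against romidepsin, 4 to 8 for mivebresib against romidepsin and 6 to 8 for mivebresib against quisinostat, and the pathway genes from 20 to 64, 73 to 99 and 48 to 74.

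Values that reversed were all uncalled. For GNA11, quisinostat against romidepsin gave 0.103 with the authors' log values, 0.0215 with upper-quartile factors, 0.104 with total counts and 0.0117 with genes of mean CPM 5 or more, and ran from -0.0748 to 0.0262 with a library left out (positive without romidepsin replicate 2). GNA11 for mivebresib against control ran from -0.0156 to 0.0476 (negative without mivebresib replicate 1). For PRKCD, mivebresib against quisinostat gave -0.136, -0.0443, -0.14 and -0.0273 under the same 4 settings. For TRIO, quisinostat against control gave 0.0915, 0.0131 and 0.0844 under the first 3 and ran from -0.293 to 0.0596 (positive without control replicate 2). With upper-quartile factors PRKCE and BAP1 with romidepsin stood at 0.000604 and 0.00608. RASGRP3 with romidepsin ran from -0.00775 to 0.0712 (negative without control replicate 2). CYSLTR2 ran from -0.0657 to 0.106 with romidepsin (negative without romidepsin replicate 2) and from -0.695 to 0.178 for mivebresib against quisinostat (positive without mivebresib replicate 1 or quisinostat replicate 2).

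The replicate numbers are shared by the groups, but no label ties same-numbered wells. Their deviations correlated between -0.162 and 0.158. Every pair of groups with romidepsin was negative (-0.162 to -0.0704), and every pair without it was positive (0.0640 to 0.158). Whether wells shared a batch was not tested. With a replicate block the counts for the 10 genes were 2, 7 and 6 against control, 4 for quisinostat against romidepsin, 6 for mivebresib against romidepsin and 7 for mivebresib against quisinostat. With the romidepsin numbers crossed in the block, chosen after seeing the data, they were 3, 7, 7, 7, 8 and 8.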

Other observations

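Among the 3 genes whose levels followed PRKCE most closely over the 8 libraries, by the root mean square difference of centred log2 CPM, were DUSP9 (0.0834) and PPFIBP2 (0.131), out of 9839 genes compared. DUSP9 encodes a phosphatase of MAP kinases. Their log2 fold changes with mivebresib were -2.48 and -2.74, beside -2.50 for PRKCE, with quisinostat -0.66 and -0.9985, and with romidepsin -0.24 and -0.14. The nearest genes to PLCB4 were STON1 (0.107), TUB (0.111) and ALPK1 (0.125), out of 9840. With quisinostat these stood at 0.94, 0.73 and 1.14, with romidepsin at 0.40, 0.45 and 0.76 and with mivebresib at -0.57, -0.59 and -0.26. Nearness over libraries that share 4 groups is a description of the pattern only.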
